A study of Rattus norvegicus with 8 samples.

Results

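Fkbp5, Sgk1, Tsc22d3, Zbtb16, Pdk4, Cdkn1a, Nfkbia, Rasd1, Mt2A and Ddit4 are genes whose transcription is known to rise when glucocorticoids act on a cell. These 10 genes were taken by name from the 17337 gene symbols in a count table of the rat striatum, and all 10 were present. They were chosen with earlier results of these data known, so that shares of all genes given beside their counts are description only. The table came from 8 wild-type male Sprague-Dawley rats, of which 4 had self-administered methamphetamine (METH, a psychostimulant that releases dopamine) and 4 had self-administered saline. METH was given at 0.05 mg/kg per intravenous infusion on lever press, in daily sessions of 2 h over 16 days. The saline rats received 0 mg/kg and shared the food training, the jugular catheter and the session schedule, and rats of both groups were anesthetized with ketamine and xylazine before the brains were taken. The rats kept for analysis were those with stable lever pressing at the end of training, and their age and the time from the last session to sacrifice were not given in the sources used here.

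Glucocorticoids, mainly corticosterone in the rat, enter cells and bind the glucocorticoid receptor, which the Nr3c1 gene encodes. The receptor waits in the cytoplasm in a complex with heat shock protein 90 and its co-chaperones, moves to the nucleus once it has bound hormone, and binds DNA at glucocorticoid response elements, many of them far from the promoter. The products of its targets in part close feedback loops: FKBP5 lowers the hormone affinity of the receptor, and TSC22D3 (also called GILZ) and the NF-kB inhibitor encoded by Nfkbia restrain inflammatory transcription. Several of these genes, among them Sgk1, Cdkn1a, Nfkbia and Ddit4, are also known to respond to stress or to neuronal activity without the hormone, so that their level alone is not a reading of the receptor.

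The total count lay between 18135939 and 21211920 per rat, and the rarest member, Pdk4, was still read 46 times in the rat with the lowest count. Levels are given as CPM, counts scaled to the library total, with TMM factors for composition. All 6 oligodendrocyte, 6 astrocyte, 6 microglial, 6 endothelial, 4 general neuron and 8 striatal projection neuron markers were present. The striatal projection neuron sum was 14020 to 14825 CPM in saline and 14765 to 18821 CPM in METH rats, highest in METH rat 3. Of these 8 markers, 6 had a log2 fold change above 0 and 2 below, and 0 were called. Ppp1r1b alone made up much of the sum, with a mean of 7169 CPM in saline and 8499 CPM in METH rats. The general neuron sum was 1827 to 2232 CPM in saline and 1482 to 1855 CPM in METH rats. Snap25, a synaptic vesicle fusion gene of this list, had a log2 fold change of -0.52 without overlap (FDR = 0.0632 in edgeR's quasi-likelihood test). It made up much of the sum, with a mean of 1265 CPM in saline and 883 CPM in METH rats. The other general neuron markers were split, at -0.23 for Syt1, 0.09 for Rbfox3 and 0.15 for Nefl, and 0 of the 4 were called. The microglial sum was 236 to 275 CPM in saline and 198 to 243 CPM in METH rats, all 6 markers had a log2 fold change below 0, and Cx3cr1, the fractalkine receptor of microglia, was called lower (log2 fold change -0.73, FDR = 0.0408 in the same edgeR test). The part of these cell types in the results was not tested. The endothelial sum was 449 to 646 CPM in saline and 461 to 489 CPM in METH rats. Saline rat 1 stood apart in markers of cortical projection neurons, whose sum over 4 genes was 75.3 CPM there and 3.35 to 13.5 CPM in the other rats. METH rat 3 lay at 29.6 on the first principal component and the other METH rats between 0.758 and 5.86. With both saline rat 1 and METH rat 3 left out, the log2 fold change was 0.46 for Pdk4, 0.09 for Fkbp5, 0.08 for Sgk1, 0.20 for Mt2A and -0.57 for Zbtb16, beside 0.77, 0.19, 0.19, 0.05 and -0.04 with all rats. In dissected tissue, fewer cells of a type and less RNA per cell cannot be told apart.

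The promoters of the members that differed most are shown first. RefSeq promoter windows (assembly GRCr8, 250 bases before to 50 after a transcription start) were found for 9 of the 10 genes, in 13 windows, Zbtb16 being the gene without one. The stretches printed read 5′ to 3′ in the direction of transcription, lie outside the annotated gene except for the last one, and carry in capitals any match to TGACG, the core of the cAMP response element, on either strand. They are Cdkn1a at chr20:7150682-7150819 (plus strand), Ddit4 at chr20:28437038-28437287, Pdk4 at chr4:34568330-34568579 and the outermost start of Tsc22d3 at chrX:109066390-109066639 (all 3 minus strand). Last come 30 bases at positions -75 to -46 from an inner start of Tsc22d3, at chrX:109010080-109010109 (minus strand), which hold 2 such matches.
Cdkn1a: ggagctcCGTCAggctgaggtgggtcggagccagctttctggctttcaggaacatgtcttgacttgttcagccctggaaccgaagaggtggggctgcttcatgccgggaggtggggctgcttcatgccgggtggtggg
Ddit4: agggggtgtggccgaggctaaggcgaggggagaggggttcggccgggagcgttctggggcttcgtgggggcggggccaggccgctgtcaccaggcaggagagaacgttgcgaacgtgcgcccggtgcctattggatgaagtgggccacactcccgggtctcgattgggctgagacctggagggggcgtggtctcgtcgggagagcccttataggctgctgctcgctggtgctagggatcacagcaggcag
Pdk4: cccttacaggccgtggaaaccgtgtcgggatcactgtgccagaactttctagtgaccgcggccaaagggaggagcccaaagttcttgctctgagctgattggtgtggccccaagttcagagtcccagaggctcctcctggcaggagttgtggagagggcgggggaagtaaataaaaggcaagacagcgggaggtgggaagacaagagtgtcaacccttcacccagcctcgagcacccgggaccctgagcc
Tsc22d3, outermost start: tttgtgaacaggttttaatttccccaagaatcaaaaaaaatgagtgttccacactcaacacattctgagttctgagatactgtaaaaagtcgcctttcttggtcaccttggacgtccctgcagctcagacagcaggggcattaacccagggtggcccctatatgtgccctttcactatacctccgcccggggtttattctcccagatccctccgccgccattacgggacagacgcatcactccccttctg
Tsc22d3, inner start: TGACGccatgTGACGcagctggctcctcct

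None of the 13 member windows held AGAACA, the short motif that the glucocorticoid receptor recognizes, on either strand, against 20.7% of the 33469 windows of 300 bases in the whole table. The full palindrome of AGAACA and its reverse complement across 3 bases was in 0.0149% of all windows, and its relaxed form GNACANNNTGTNC, searched after the strict form had given no match, in 0.439%, and neither was in a member window. The complete cAMP response element TGACGTCA was in 1.83% of all windows and in 0 member windows. TGACG was present in 3 of the 13 windows (Tsc22d3, Cdkn1a and Rasd1), against 21.2% of all windows, and TATAAA on the sense strand in 4 (2 of Sgk1, 1 of Tsc22d3 and 1 of Mt2A), against 8.80%. These are matches of letters near the start only, and distant sites were not searched.

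In the striatum of METH rats, 9 of the 10 glucocorticoid-induced genes had a log2 fold change above 0, but only Cdkn1a passed the test across all genes. The number above 0 was 8 to 10 under the alternatives tried, as Mt2A and Zbtb16 changed sign under some of them. Of the 12014 genes tested, all 10 members among them, 48.6% had a log2 fold change above 0. Cdkn1a was higher by 0.91 on the log2 scale, and Pdk4, Ddit4 and Tsc22d3 had log2 fold changes between 0.44 and 0.77 that were not called. Rasd1, Fkbp5 and Sgk1 lay between 0.19 and 0.24, Nfkbia and Mt2A between 0.05 and 0.11, and Zbtb16 at -0.04. The median over the 10 genes was 0.22, beside -0.0055 over all genes tested, and it was 0.37 without saline rat 3. To be called, a gene needed a mean log2 CPM above 1 and an FDR (Benjamini-Hochberg over all genes, edgeR's quasi-likelihood test) under 0.05, which held for 0.449% of genes as higher and 0.0666% as lower. At an unadjusted p below 0.05 in the same test, 5 members were higher and 0 lower, beside 6.26% and 4.88% of all genes. The 4 METH rats lay above the 4 saline rats without overlap in 4 members (Cdkn1a, Ddit4, Pdk4 and Fkbp5), as in 3.75% of all genes, and below them in 0 members, as in 2.65% of all genes.

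**Figure D1:**
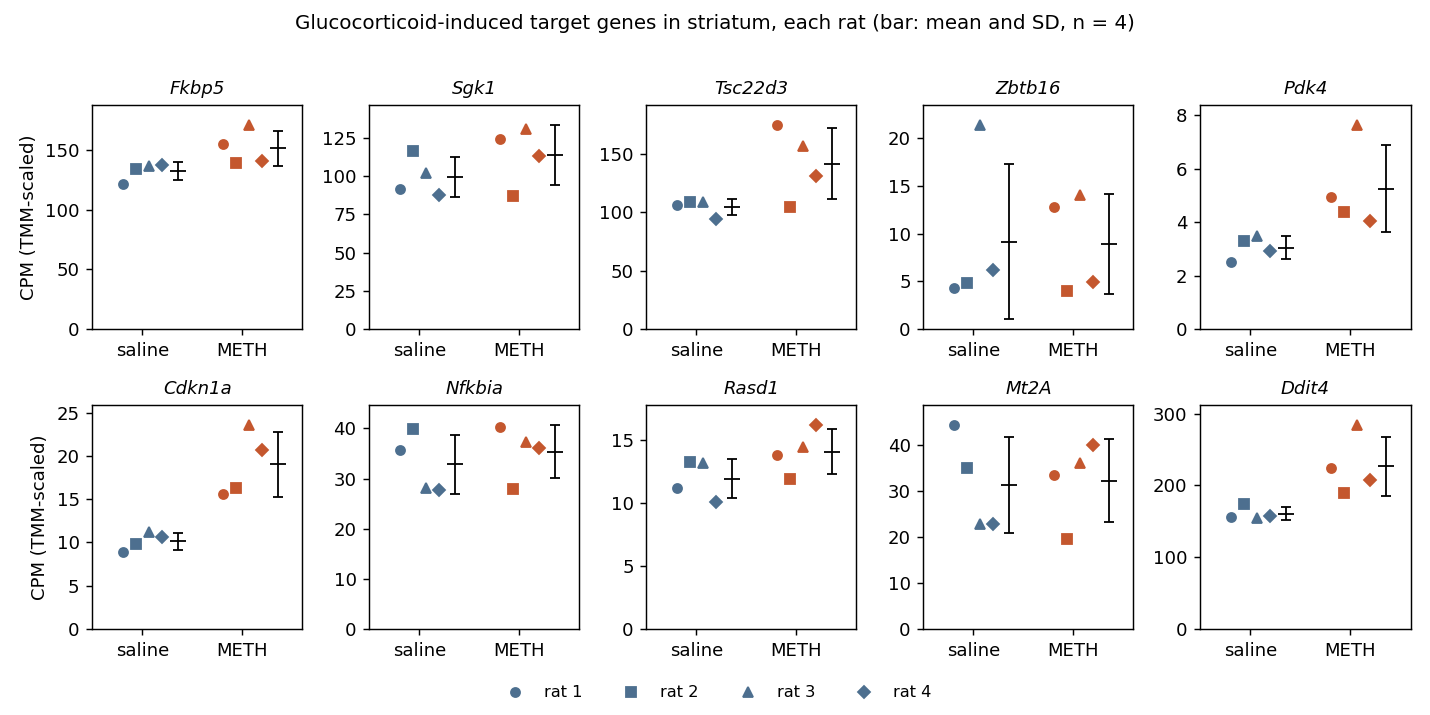
Level of each of the 10 genes in each rat, in TMM-scaled CPM on axes from 0, with 1 symbol per rat number and the mean and SD of each group of 4 as a bar. The METH rats lie above all saline rats for Cdkn1a, Ddit4, Pdk4 and Fkbp5, and METH rat 2 falls among the saline rats for Tsc22d3.

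**Figure D2:**
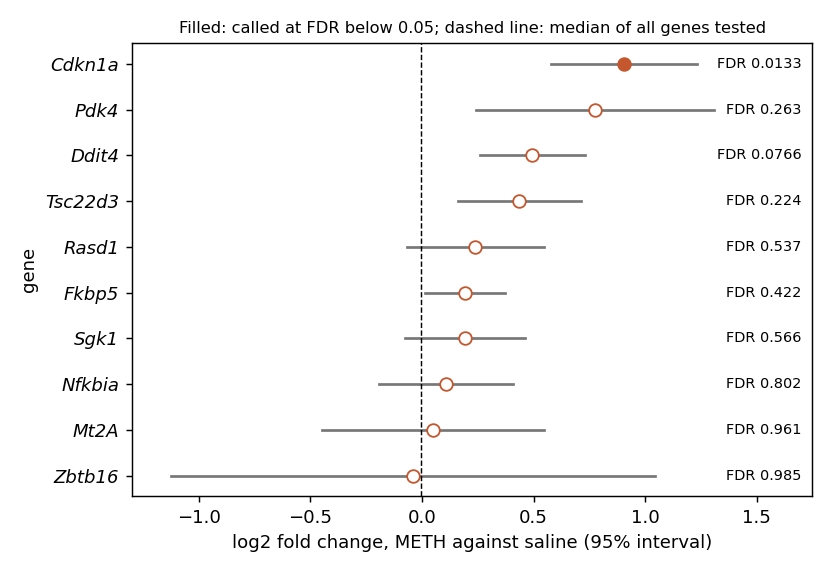
Log2 fold change of METH against saline for each gene with its 95% interval from the quasi-likelihood fit. Cdkn1a, the filled point, has an FDR of 0.0133, and the intervals of Rasd1, Sgk1, Nfkbia, Mt2A and Zbtb16 include 0.

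Cdkn1a encodes p21, which blocks cyclin-dependent kinases and is best known from cell cycle arrest. It was at 8.89, 9.80, 11.2 and 10.6 CPM in saline rats 1 to 4 and at 15.6, 16.2, 23.6 and 20.7 CPM in METH rats 1 to 4. The lowest METH rat was well above the highest saline rat. The saline mean of 10.1 ± 0.992 CPM (SD, n = 4) compares with a METH mean of 19.0 ± 3.77 CPM (SD, n = 4), a ratio of 1.88. The log2 fold change was 0.91 (SE, the standard error, 0.15, FDR = 0.0133 in edgeR's quasi-likelihood test), and 0.891% of the genes tested had a higher one. The exact permutation test over the 70 labellings of the rats gave a two-sided p of 0.0286, the smallest it can give. This value follows from the lack of overlap, and Ddit4, Pdk4 and Fkbp5 had the same one. The call was lost without saline rat 2 (log2 fold change 0.89, FDR = 0.0636 in the same edgeR test) and without both saline rat 1 and METH rat 3 (0.73, FDR = 0.104), while the FDR over all alternatives ranged from 1.49e-05 to 0.104. The genes whose centred log2 CPM profile over the 8 rats lay nearest to that of Cdkn1a were Dnajb5, a member of the HSP40 co-chaperone family, and Rem2, a small GTPase, at root mean square differences of 0.11 and 0.14 log2 units.

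Ddit4 and Pdk4 act on metabolism: DDIT4 (also called REDD1) restrains the growth kinase complex mTORC1, and PDK4 inhibits pyruvate dehydrogenase and so spares glucose. Ddit4 was at 156, 174, 155 and 158 CPM in saline rats 1 to 4 and at 224, 189.9, 284 and 208 CPM in METH rats 1 to 4. Every METH rat was above every saline rat, with METH rat 3 the highest. The means were 161 ± 8.98 CPM (SD, n = 4) and 227 ± 40.8 CPM (SD, n = 4), with a log2 fold change of 0.49 (SE 0.11). Its FDR was 0.0766 in the edgeR quasi-likelihood test, so that it was not called. Ddit4 was called by the Wald test of DESeq2 (FDR = 0.00272), by edgeR with every gene of at least 1 count tested (FDR = 0.0461) and without METH rat 2 (FDR = 0.0312), and its FDR over all alternatives ranged from 0.00272 to 0.283.

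Pdk4 was at 2.52, 3.30, 3.48 and 2.93 CPM in saline rats 1 to 4 and at 4.94, 4.38, 7.62 and 4.06 CPM in METH rats 1 to 4. The groups did not overlap, and METH rat 3 was again the highest. The ratio of the mean CPM was 1.72 and the log2 fold change 0.77 (SE 0.25, 95% interval 0.24 to 1.31, FDR = 0.263 in edgeR's quasi-likelihood test). Without METH rat 3 the log2 fold change was 0.54. Pdk4 was called under none of the alternatives tried, with an FDR from 0.112 to 0.647. It had between 46 and 135 counts per rat, the fewest of the members.

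Tsc22d3 and Fkbp5 are widely used readouts of glucocorticoid receptor activity. Tsc22d3 was at 107, 109, 109 and 94.4 CPM in saline rats 1 to 4 and at 174, 104, 157 and 131 CPM in METH rats 1 to 4. METH rats 1, 3 and 4 were above every saline rat, and METH rat 2 was at the level of the saline rats. The log2 fold change was 0.44 (SE 0.13, FDR = 0.224 in edgeR's quasi-likelihood test), and the exact permutation test gave a two-sided p of 0.114. Without METH rat 2 it was 0.56 with an FDR of 0.0299 in the same edgeR test, within a range of 0.0299 to 0.538 over all alternatives.

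Fkbp5 was at 122, 134, 137 and 137 CPM in saline rats 1 to 4 and at 155, 139, 170.3 and 140.4 CPM in METH rats 1 to 4. The groups did not overlap, but METH rats 2 and 4 were just above the highest saline rats. The log2 fold change was 0.19 (SE 0.08, 95% interval 0.01 to 0.37, FDR = 0.422 in edgeR's quasi-likelihood test), a ratio of mean CPM of 1.14. Of the genes tested, 14.4% had a higher log2 fold change than Fkbp5.

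The other members overlapped between the groups. Sgk1, a kinase that regulates ion channels and transporters, lay between 87.5 and 116 CPM in saline rats and between 86.6 and 130.4 CPM in METH rats, with a log2 fold change of 0.19 (95% interval -0.08 to 0.46). Rasd1, a small GTPase first found as induced by dexamethasone, lay between 10.1 and 13.2 CPM and between 11.9 and 16.2 CPM, with a log2 fold change of 0.24 (95% interval -0.07 to 0.54). Nfkbia lay between 27.7 and 39.8 CPM and between 27.8 and 40.3 CPM, with a log2 fold change of 0.11 (95% interval -0.19 to 0.41). The log2 fold change of Sgk1 was 0.12 without METH rat 3 and 0.30 without METH rat 2. That of Nfkbia was 0.03 without saline rat 4 and 0.21 without saline rat 2. With all rats, the FDR of Sgk1, Rasd1 and Nfkbia was 0.566, 0.537 and 0.802 in edgeR's quasi-likelihood test.

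Mt2A encodes a metallothionein, a small protein that binds zinc and copper. It was at 44.3, 34.9, 22.8 and 22.9 CPM in saline rats 1 to 4 and at 33.4, 19.5, 36.1 and 40.0 CPM in METH rats 1 to 4. Saline rats 1 and 2 were nearer to most METH rats than to the other saline rats. The log2 fold change was 0.05 (95% interval -0.45 to 0.55, FDR = 0.961 in edgeR's quasi-likelihood test). Mt1a, a related metallothionein gene that may share reads with Mt2A, had a log2 fold change of -0.13 (FDR = 0.795 in the same edgeR test), and with the handling of shared reads not stated both values are uncertain.

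Zbtb16, which encodes the zinc finger transcription factor PLZF, varied most within the groups. It was at 4.34, 4.85, 21.3 and 6.14 CPM in saline rats 1 to 4 and at 12.8, 4.00, 14.1 and 4.90 CPM in METH rats 1 to 4. Saline rat 3 was the highest of all rats, and METH rats 1 and 3 were well above METH rats 2 and 4. The log2 fold change was -0.04 (95% interval -1.12 to 1.04, FDR = 0.985 in edgeR's quasi-likelihood test), and it was 0.80 without saline rat 3 (FDR = 0.559 in the same edgeR test). The interval spans more than a doubling in either direction, so that a difference of the size seen for Cdkn1a was not detectable for Zbtb16 in these rats.

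Among the METH rats, rats 2 and 3 often lay at the ends of the group for the members. METH rat 2 was the lowest METH rat in 8 of the 10 genes and the highest in 0, and its median log2 ratio to the saline mean over the 10 genes was -0.0020. METH rat 3 was the highest in 6 genes and the lowest in 0, with a median of 0.49, and METH rats 1 and 4 had medians of 0.40 and 0.34. How often each rat was the lowest or highest over all genes was not determined. On the first principal component, over genes with a mean log2 CPM above 1, the saline rats lay between -22.1 and -2.68. METH rat 2 was the METH rat nearest to them (0.758) and METH rat 3 the farthest (29.6). The place of these 2 rats was thus not particular to the members. METH rat 2 was at or under the saline mean for Sgk1, Tsc22d3, Zbtb16, Nfkbia, Rasd1 and Mt2A, and above all saline rats for Cdkn1a, Pdk4, Ddit4 and Fkbp5. The summed oligodendrocyte markers were at 16898 and 18143 CPM in METH rats 1 and 3 and at 12816 and 12167 CPM in METH rats 2 and 4, and at 12874 to 18636 CPM in the saline rats. The astrocyte markers summed to 2680 CPM in METH rat 2 and to 2845 to 3489 CPM in the other METH rats, against 2726 to 3277 CPM in the saline rats, and the part of either cell type in these results was not tested.

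**Figure D3:**
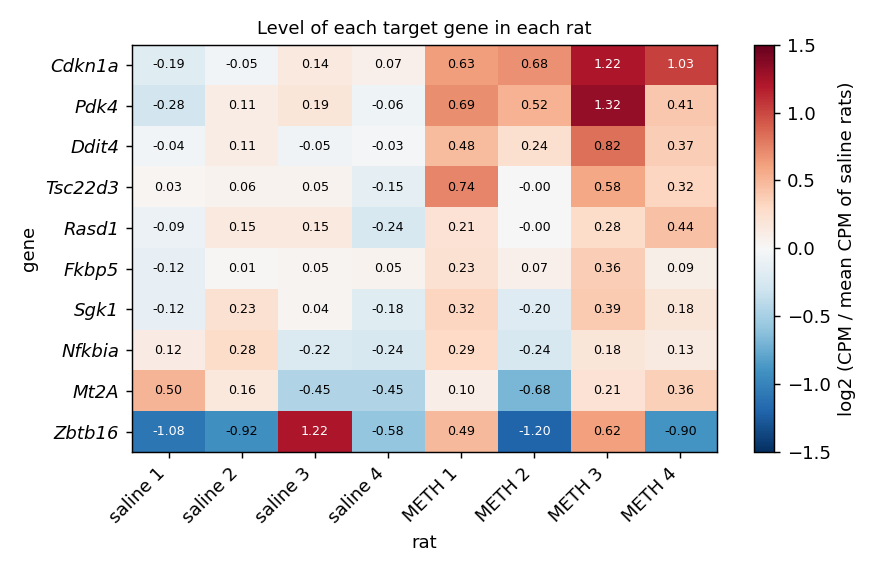
Log2 ratio of each rat's CPM to the mean CPM of the saline rats for each gene, with genes in rows by fold change and rats in columns. METH rat 3 reaches 1.32 for Pdk4 and 1.22 for Cdkn1a, while METH rat 2 reaches 0.68 for Cdkn1a and -1.20 for Zbtb16.

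Beyond the 10 genes, a list of 30 other genes known to be regulated by glucocorticoids was read in the same fit. Of these, 27 were in the table and all 27 were tested. Per1 alone was called higher and 0 were called lower, 21 had a log2 fold change above 0, and the median was 0.15. At an unadjusted p below 0.05 in the edgeR quasi-likelihood test, 6 of the 27 were higher and 0 were lower, read against the same 6.26% and 4.88% of all genes. Per1, a core gene of the circadian clock that is also an early response gene, was at 88.6, 78.8, 98.4 and 87.4 CPM in saline rats 1 to 4 and at 153, 145, 163 and 129 CPM in METH rats 1 to 4. All METH rats were above all saline rats, with a log2 fold change of 0.74 (SE 0.09, FDR = 0.00152 in edgeR's quasi-likelihood test). The other 5 were Dusp1, a phosphatase that switches off MAP kinases, Bcl6, a transcriptional repressor, Cebpb, a transcription factor, Gjb6, an astrocyte gap junction gene, and Agt, which encodes angiotensinogen, with log2 fold changes of 0.88, 0.53, 0.61, 0.44 and 0.45 and FDR values between 0.102 and 0.224 in the same edgeR test. Bcl6, Cebpb and Gjb6 were also called by the Wald test of DESeq2. Dusp1 was called without saline rat 1, Cebpb without METH rat 2 and Agt without METH rat 4, each time beside Per1. At the low end was Lcn2, with a log2 fold change of -0.70 at 0.896 to 3.09 CPM (FDR = 0.474, same edgeR test).

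The receptors that read the hormone had lower values in METH rats, although neither was called. Nr3c1, the glucocorticoid receptor, and Nr3c2, the mineralocorticoid receptor, which binds corticosterone with higher affinity, were both below every saline rat in all 4 METH rats. The same held for 2.65% of all genes. Nr3c2 was at 45.4, 49.2, 52.5 and 46.8 CPM in saline rats 1 to 4 and at 40.6, 41.7, 32.2 and 44.2 CPM in METH rats 1 to 4. Its log2 fold change was -0.29 (SE 0.10, FDR = 0.318 in edgeR's quasi-likelihood test), beside -0.27 for Nr3c1 (SE 0.07, FDR = 0.180). Fkbp4, the co-chaperone of the receptor complex that acts opposite to FKBP5, was at 218 to 247 CPM in saline rats and at 265 to 314 CPM in METH rats, a log2 fold change of 0.31 (SE 0.08, FDR = 0.126 by the same edgeR test). Hsd11b1, whose product regenerates active corticosterone within tissues, had a log2 fold change of -0.14 with overlapping groups (FDR = 0.753, same edgeR test), which was -0.04 without saline rat 2 and -0.33 without METH rat 4. Of the 9 receptor and cofactor genes tested in this list of 10, 0 were called by edgeR. An unadjusted p below 0.05 in its quasi-likelihood test was found for 3 (1 higher and 2 lower, against 6.26% and 4.88% of all genes). The Wald test of DESeq2 called 2 of the 9, Nr3c1 and Fkbp4, beside 183 calls over all genes. It gave a p-value for 14398 genes, and fewer of these received an FDR.

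**Figure D4:**
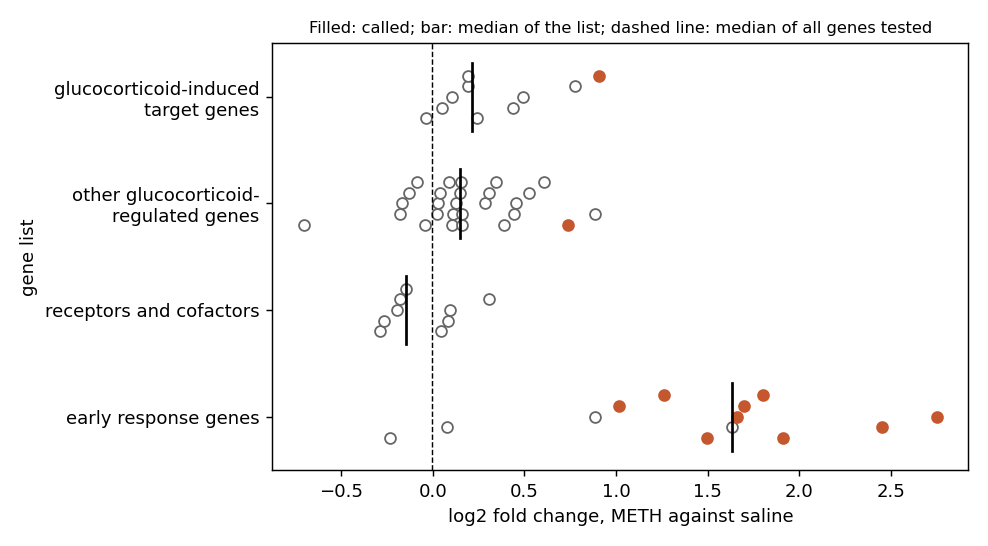
Log2 fold change of METH against saline for each tested gene of 4 lists, 1 point per gene, filled where called, with the list median as a bar. The medians are 0.22 for the glucocorticoid-induced target genes, 0.15 for the other glucocorticoid-regulated genes, -0.14 for the receptors and cofactors and 1.63 for the early response genes.

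Early response genes, which neurons switch on within minutes of activity, were mostly higher in METH rats. Of 13 early response genes, Dusp1 among them, 9 were called higher and 0 were called lower, beside 0.449% and 0.0666% of all genes. This list was chosen with earlier results of these data known, so that its counts are a description and no independent test. The median log2 fold change was 1.63. The called genes were Nr4a3, Egr2, Nr4a1, Arc, Fos, Egr4, Junb, Fosb and Egr1, with log2 fold changes from 1.02 (Egr1) to 2.75 (Nr4a3). Those not called were Npas4 (1.63), Dusp1 (0.88), Btg2 (0.08) and Ier2 (-0.24), and the groups overlapped in Dusp1, Btg2 and Ier2. Fos lost its call in 6 of the 8 fits that left out a rat (FDR up to 0.176 in the edgeR quasi-likelihood test). METH rat 2 was the lowest METH rat in 10 of the 13 early response genes, as it was in most glucocorticoid-induced genes. It was the lowest in 13 of the 27 other glucocorticoid-regulated genes and in 0 of the 9 receptors and cofactors. Saline rat 1, the rat with the cortical markers, was the highest saline rat in 10 of the 13, with Fos at 21.1 CPM and Arc at 228 CPM against at most 8.20 and 116 CPM in the other saline rats. Among the 10 glucocorticoid-induced genes it was the highest saline rat for Mt2A alone and the lowest for Fkbp5, Zbtb16, Pdk4 and Cdkn1a. Without saline rat 1 the log2 fold change of Cdkn1a was 0.85 (FDR = 0.0459 in the edgeR quasi-likelihood test). Choroid plexus markers summed to 4.06 to 5.60 CPM in the saline rats and to 6.09 to 8.91 CPM in the METH rats without overlap, from 5 genes of which Ttr, the defining one, had at most 36 counts and was at 0 in 3 rats, and their part in these results was not tested.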

How the data were processed

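Striatal mRNA of 8 rats (saline 1 to 4, METH 1 to 4) was captured by poly(A) and sequenced as paired-end reads. Per the labels and the methods, the authors used Cutadapt 1.18 for trimming, STAR 2.7.0e for alignment to rn6 and featureCounts (Subread 1.6.4) for counting. They deposited raw counts per gene symbol, 1 column per rat. The annotation, strand setting and treatment of shared reads are not given in the sources used here, so genes with close copies or overlapping neighbours are uncertain. Nothing states how same-numbered rats relate.

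From the counts, values were computed in R 4.3.3 (DESeq2 1.42.0, limma 3.58.1, edgeR 4.0.16). Genes passing filterByExpr (minimum count 10) were scaled by TMM, and edgeR's quasi-likelihood F-test was run across all genes with no covariate. Each SE was taken as the absolute log2 fold change over the root of F, and log2 CPM used a prior count of 2. Single members were also tested by exact permutation. Within groups, pairs of rats were no duplicates, with a chi-square of 10.1 to 27.6 per degree of freedom. Rn6 coordinates were not used, and promoter sequences are RefSeq windows of GRCr8.

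The members and the lists were chosen with earlier results of these data known. Named genes are the 10 members, the called genes of the other lists, Nr3c1, Nr3c2, Hsd11b1 and the 2 genes nearest in profile to each called member. Dusp1, Bcl6, Cebpb, Gjb6, Agt, Lcn2, Fkbp4, Npas4, Btg2, Ier2, Snap25, Mt1a and the marker genes were chosen for naming after their values were seen. Alternatives tried were DESeq2, limma-voom, RLE and total-count scaling, no count filter, no minimum log2 CPM, each rat left out, the rat number as a replicate block and, added after the data were seen, saline rat 1 and METH rat 3 both left out.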

Additional observations from a re-analysis of the deposited data

Results flagged for a closer look

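Each group of 4 rats was checked for a rat whose gap to its nearest neighbour took most of the range of the group, on the log2 CPM scale for genes. Of 74 groups of named genes, marker sums and library measures, 5 were past Dixon's 95% critical value, where chance gives about 5%. Among the glucocorticoid-induced genes these were Ddit4, for which saline rat 2 stood above the other saline rats (share of the range 0.832), and Tsc22d3, for which saline rat 4 stood below them (0.863). Saline rat 1 stood above the other saline rats in Slc17a7, a vesicular glutamate transporter of cortical neurons (0.947, 1198 counts against 64 to 76), in the sum of the cortical markers (0.938) and in Junb (0.851).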

How the results depend on the processing

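Nr3c1 was called under 1 alternative, the Wald test of DESeq2 (FDR = 0.0397, range over the alternatives 0.0397 to 0.499). The quasi-likelihood test called 62 genes (54 higher, 8 lower) and 1 member. DESeq2 called 183 genes (136 higher, 47 lower), each of those 62 among them, 2 members (Cdkn1a and Ddit4, the latter at a log2 fold change of 0.49), 4 other glucocorticoid-regulated genes higher and 2 receptors and cofactors, and the cause was not tested. With every gene of at least 1 count tested, 13 genes were lower and 2 members were called (Ddit4 at 0.50). With saline rat 1 and METH rat 3 both left out, 36 genes were called (31 higher, 5 lower) and 0 members, Cdkn1a being at 0.73.

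Leaving out single rats gave between 37 and 70 calls (range over 8 fits), of which 35 to 66 were higher and 2 to 9 lower, 0 (without saline rat 2) to 3 (without METH rat 2) members called and 1 to 2 other glucocorticoid-regulated genes called higher. The count was lowest (37) without saline rat 2 and highest (70) without METH rat 1. The lower calls numbered 2 without saline rat 2 and 4 without saline rat 4, METH rat 1 or METH rat 3. Over the same 8 fits the log2 fold change ranged from 0.79 to 0.99 for Cdkn1a, from 0.37 to 0.57 for Ddit4, from 0.32 to 0.56 for Tsc22d3, from -0.34 to 0.80 for Zbtb16 and from -0.08 to 0.26 for Mt2A. The sign of Zbtb16 turned without saline rat 3 (0.80), METH rat 2 (0.21) or METH rat 4 (0.16), with limma-voom (0.0444) and with the replicate block (0.0642). That of Mt2A turned without saline rat 3 (-0.0776), saline rat 4 (-0.08), METH rat 3 (-0.01) or METH rat 4 (-0.07). The other 8 members were above 0 under all 16 alternatives. The median over the 10 genes ranged from 0.18 to 0.37 over the alternatives, the highest value being that without saline rat 3.

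Between rats of the same number, deviations from the group mean correlated at -0.09 on average (0.01, -0.19, -0.20 and 0.04 for numbers 1 to 4). What rats of the same number share is not stated and was not tested. The replicate block left 37 calls, of which 35 were higher and 2 lower, and the log2 fold change of Cdkn1a was 0.90 (FDR = 0.0268). Total-count scaling moved the median of all genes from -0.0055 to -0.0411. Counts were lowest for Pdk4 and Zbtb16, with as few as 46 and 79 in a rat. The SE of the log2 fold change was 0.25 for Pdk4 and 0.50 for Zbtb16, which lay between 4.34 and 21.3 CPM in the saline rats.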

Other observations

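Dnajb5 and Rem2, whose profiles lay nearest to Cdkn1a, were both called, at log2 fold changes of 0.80 (SE 0.10, FDR = 0.00123 in edgeR's quasi-likelihood test) and 1.00 (SE 0.09, FDR = 0.000188). Rem2 was at 88.0 to 92.8 CPM in the saline rats and at 153 to 209 CPM in the METH rats, and like Cdkn1a it was highest in METH rat 3. Since nearness was measured over all 8 rats, it includes the difference between the groups.

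No gene lay as near to Zbtb16. The nearest, looked up after its values were seen, was Bcl2l11, which encodes the apoptosis activator BIM, at a root mean square difference of 0.55 log2 units, with its highest level of 4.06 CPM also in saline rat 3.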
